A study of Homo sapiens with 19 samples.

Results

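The 10 genes described here belong to the Nodal and fibroblast growth factor (FGF) signalling systems of human embryonic stem cells: the ligands NODAL and GDF3, the Nodal antagonists LEFTY1 and LEFTY2, the co-receptor TDGF1, the ligands FGF2 and FGF4, and the receptors FGFR1, FGFR2 and FGFR3. They were chosen by name, with earlier results of these data known. Their values are the sequencing reads that crossed the annotated introns of each gene in 19 RNA libraries. They are 10 of 22760 genes with reads in introns of their own, and 113 of their 139 annotated introns had at least 1 read. The series built a Cas13d toolbox for the knockdown of single RNA isoforms, Cas13d being an enzyme that cuts RNA where a guide RNA pairs with it, and its target here was RBFOX2, a splicing regulator.

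All 14 knockdown and control libraries came from HUES66, a human embryonic stem cell line grown in StemFlex medium on Geltrex, and every one of them, controls included, had received doxycycline at 1 ug per ml. The control cells (genotype WT in the labels) gave 1 library each at 24, 48 and 96 hr. RBFOX2 total knockdown (total KD) gave 1 library at each of those times. The RBFOX2 N-short and N-long knockdowns, which target 1 class of RBFOX2 isoforms each, gave 2 libraries at 24 hr and 1 each at 48 and 96 hr. These form 4 library sets by time and replicate number: 24 hr replicate 1 (which has no labelled control), 24 hr replicate 2 (which has no total KD), 48 hr and 96 hr. By the library names the 2 sets of 24 hr are of different library series, and the 48 and 96 hr sets share another series. The labels do not say whether libraries of a group came from separate cultures, so p-values measure the spread between these libraries, which may be technical. A further 5 libraries, 1 each, came from HUES66 WT without a treatment or time in the labels, from HEK293 WT (an embryonic kidney line) and from total, nuclear and cytoplasmic RNA of A375 (a melanoma line).

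As background, Nodal is a TGF-beta family ligand that acts through activin receptors and SMAD2 and SMAD3, needs the membrane-bound co-receptor TDGF1 (also called Cripto), and induces LEFTY1 and LEFTY2, secreted antagonists that limit it. GDF3 is a related ligand of pluripotent cells. FGF2 is the growth factor added to most media for human embryonic stem cells, and FGF4 is a second FGF of the pluripotent state. FGF receptors are tyrosine kinases with up to 3 immunoglobulin-like (Ig) domains outside the cell. The second part of the third Ig domain is coded by either of 2 mutually exclusive exons, IIIb (usual in epithelium) or IIIc (usual in mesenchyme), which set the FGFs that a receptor binds.

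Of the exclusive exons of FGFR2, the IIIb exon is shown because the receptor results turn on its share of the reads. It was read 5′ to 3′ on the coding strand from GENCODE 29 transcripts, and lies within coding sequence at chr10:121518682-121518829 on the minus strand of hg38.
FGFR2 exon IIIb: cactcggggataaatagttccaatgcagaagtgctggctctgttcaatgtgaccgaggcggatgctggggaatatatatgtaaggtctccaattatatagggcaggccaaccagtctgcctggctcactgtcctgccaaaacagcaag
RBFOX proteins bind GCATG in RNA. GCATG occurs 0 times in exon IIIb, and so does its reverse complement CATGC, which overlaps it in the bases CATG. Exon IIIc and the introns around both exons were not searched, so sites outside exon IIIb are not covered. Of 21099 internal exons of 140 to 160 nt in coding transcripts, 13.9% hold GCATG on the transcript strand and 23.6% hold it on either strand.

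A second splice choice of FGFR2 concerns the donor of the intron chr10:121503942-121515116. A pair of donors 6 bases apart keep or drop a valine and a threonine (VT) of the protein, in the stretch where the adaptor FRS2 is known to bind. The coding sequence around it is printed with those 6 bases in capitals.
FGFR2 donor pair: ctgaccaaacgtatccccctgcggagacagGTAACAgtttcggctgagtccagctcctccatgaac

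LEFTY1 and LEFTY2 are neighbouring genes of near-identical coding sequence, which limits how far their reads can be told apart. The split of reads between these genes is therefore uncertain, and their sum is given beside the single values. Of the introns of LEFTY1, 2 also belong to the annotated gene AL117348.2, so the gene value of LEFTY1 rests on the introns it has alone.

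The 14 doxycycline-treated libraries held 9622841 to 14625040 junction reads each, and all 19 held 6499183 to 27937149. Levels are given as reads per 1000000 junction reads of the library (written "rpm" below), and differences as log2 changes. RBFOX2, the knocked-down gene, was at 119 to 126 rpm in the 3 controls, 48.2 to 78.7 in total KD, 107 to 121 in N-short KD and 72.7 to 87.6 in the N-long libraries, so that the total KD and N-long KD libraries lay below every control and the N-short KD libraries overlapped them. Of 10 markers of pluripotent stem cells, 9 had reads in HUES66 (SOX2, which has no intron to count, was at 0), summing to 3064 to 4680 rpm in the 14 libraries, 3638 in HUES66 WT, 47.7 in HEK293 and 9.99 in A375 total RNA. The marker sums of mesendoderm and endoderm were 0.75 to 2.57 in the 14 libraries, with SOX17 at 0. Of 8 melanocyte markers, A375 had reads for 6, with MLANA and TYR at 0. In bulk RNA, fewer cells of a type and less RNA per cell cannot be told apart.

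TDGF1 was the most abundant of the 10 genes in the stem cells when levels were set per intron, which takes out the number of introns a gene has. Over the 14 libraries the median level per intron was 42.1 rpm for TDGF1 and 21.2 for FGFR1, and the ranges of both genes lay apart from that of the next. FGF2 followed at 9.02, FGFR2 at 6.94 and LEFTY1 (all its introns) at 5.54. FGF2 was above FGFR2 in 14 of 14 libraries although their ranges overlapped, and FGFR2 was above LEFTY1 in 9 of 14, so these 2 did not differ beyond their spread. GDF3 (1.71), NODAL (1.64) and LEFTY2 (1.11) overlapped with each other, LEFTY2 overlapped with FGFR3 (0.754), and FGF4 was last at 0.036.

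**Figure D1:**
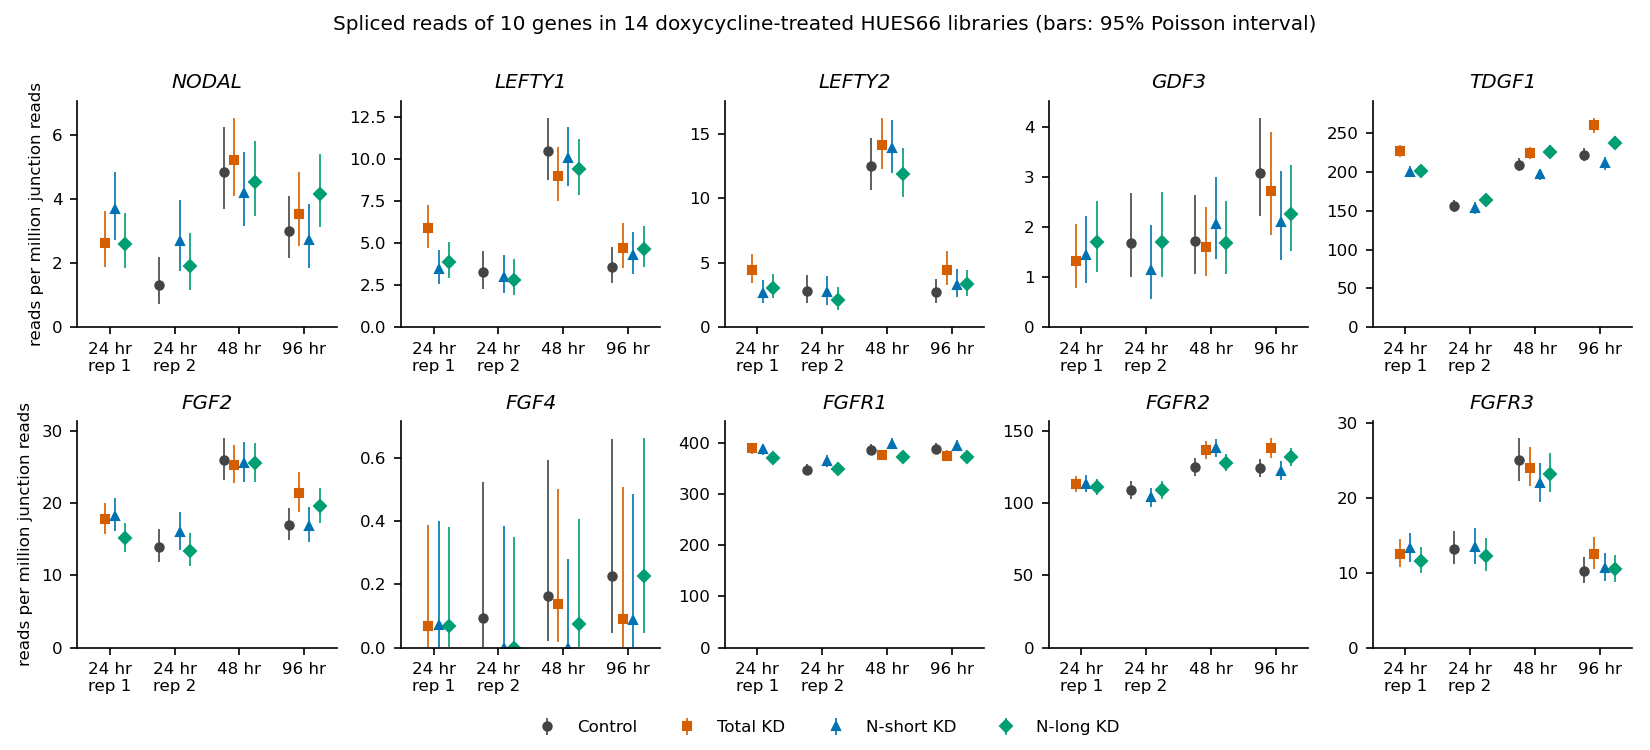
Reads per 1000000 junction reads (y axis, 1 panel per gene, each from 0) of the 10 genes in the 14 doxycycline-treated HUES66 libraries, by library set (x axis) and knockdown (marker); bars are exact 95% Poisson intervals and cover counting error only. The 4 libraries of 48 hr are the highest 4 for NODAL, LEFTY1, LEFTY2, FGF2 and FGFR3, whichever knockdown they carry.

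NODAL (ENSG00000156574.9, chr10:70432315-70447951, minus strand, 3 annotated introns) was low in all stem cell libraries, with 603 reads over the 14. In the controls it was at 1.31 (24 hr replicate 2), 4.83 (48 hr) and 3.003 rpm (96 hr). Total KD gave 2.63, 5.21 and 3.54 rpm at 24, 48 and 96 hr. N-short KD gave 3.67, 2.702, 4.19 and 2.705, and N-long KD 2.60, 1.89, 4.53 and 4.16 (24 hr replicates 1 and 2, 48 hr and 96 hr, the order kept below). The 48 hr library was the highest within each group, and the groups overlapped.

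LEFTY1 (ENSG00000243709.1, chr1:225886282-225911382, minus strand), an antagonist that binds Nodal and its co-receptor, stood at 3.28, 10.48 and 3.604 rpm in the controls of 24, 48 and 96 hr. Total KD libraries had 5.89, 9.03 and 4.72, N-short KD libraries 3.46, 3.01, 10.1 and 4.28, and N-long KD libraries 3.90, 2.84, 9.42 and 4.68. The 4 libraries of 48 hr lay at 9.03 to 10.48, and the other 10 at 2.84 to 5.89.

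LEFTY2 (ENSG00000143768.12, chr1:225936598-225941489, minus strand), its near-identical neighbour, spread most among the genes with over 100 reads, 6.8-fold from the lowest to the highest library. The controls had 2.81, 12.5 and 2.703 rpm, total KD 4.43, 14.2 and 4.45, N-short KD 2.66, 2.702, 13.9 and 3.32, and N-long KD 3.08, 2.08, 11.9 and 3.32. Again the 48 hr libraries were apart, at 11.9 to 14.2 against 2.08 to 4.45 in the rest. Summed over all introns of both genes, LEFTY1 and LEFTY2 came to 40.9 to 50.1 rpm at 48 hr and to 13.9 to 25.8 in the other 10 libraries, so the 48 hr level does not rest on how reads were split. The share of LEFTY1 in that sum was 68.0% to 73.7% at 48 hr and 79.6% to 86.2% elsewhere.

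GDF3 (ENSG00000184344.3, chr12:7689782-7695776, minus strand) has 1 intron and had 330 reads in the 14 libraries. Its levels were 1.69, 1.72 and 3.08 rpm in the controls, 1.32, 1.60 and 2.73 in total KD, 1.44, 1.14, 2.06 and 2.09 under N-short KD and 1.71, 1.70, 1.68 and 2.27 in N-long KD. Here the 4 libraries of 96 hr (2.09 to 3.08) were the ones above all 10 others (1.14 to 2.06).

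TDGF1 (ENSG00000241186.9, chr3:46574534-46582463, plus strand), the co-receptor, had 36760 reads. It was at 156, 210 and 222 rpm in the controls, 227, 225 and 260 in total KD, 201, 154, 197 and 211 in N-short KD, and 201, 164, 226 and 238 in N-long KD. The means were 196 ± 35.2 (SD, n = 3) in the controls and 237 ± 19.9 (SD, n = 3) in total KD. All 3 total KD libraries lay above all 3 controls, while the 3 libraries of 24 hr replicate 2 were the lowest of the 14 and that set holds no total KD. In the annotation 7 pseudogenes are named after TDGF1, so reads could be shared with copies of it.

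FGF2 (ENSG00000138685.15, chr4:122826708-122898236, plus strand) was at 13.97, 26.1 and 17.0 rpm in the controls, 17.8, 25.3 and 21.4 in total KD, 18.3, 16.0, 25.7 and 16.9 under N-short KD and 15.2, 13.4, 25.6 and 19.6 in N-long KD. The 48 hr libraries kept within 25.3 to 26.1 and lay above the other 10 (13.4 to 21.4). FGF4 (ENSG00000075388.3, chr11:69771016-69775403, minus strand) had 17 reads in the 14 libraries together, from 0 to 0.227 rpm, and did not pass the filter on low counts, so it entered no test.

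The 3 receptors differed in how much they varied. FGFR1 (ENSG00000077782.20, chr8:38400215-38468834, minus strand), with 66477 reads the most deeply counted member, ranged only from 347 to 398 rpm (1.15-fold). Its controls had 347, 386 and 388 rpm, total KD 388.7, 375.8 and 374.6, N-short KD 387, 364, 398 and 394, and N-long KD 371, 349, 372 and 373. FGFR2 (ENSG00000066468.22, chr10:121478334-121598458, minus strand) ranged from 104 to 138, and for both genes the 3 libraries of 24 hr replicate 2 were the lowest. FGFR2 in the controls was at 109, 125 and 124 rpm and in total KD at 113, 136 and 138, with overlapping ranges. FGFR3 (ENSG00000068078.18, chr4:1793293-1808872, plus strand) was at 13.2, 25.1 and 10.3 in the controls, 12.5, 24.1 and 12.5 in total KD, 13.3, 13.4, 22.0 and 10.7 under N-short KD and 11.6, 12.3, 23.3 and 10.50 in N-long KD. Its 48 hr libraries, at 22.0 to 25.1, were apart from the 10 others, at 10.3 to 13.4. In the annotation 3 pseudogenes are named after FGFR3.

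Whether loss of RBFOX2 changes these genes was tested with edgeR's quasi-likelihood test over all genes, with the library set as a block. TDGF1 alone passed: it rose under total KD by a log2 change of 0.17 (SE 0.042, adjusted p = 0.0259, edgeR). The log2 ratio of total KD to control was 0.10 within the 48 hr set and 0.23 within the 96 hr set, the 2 sets that hold both. The call was lost without the block (adjusted p = 0.295) and when any of 5 single libraries was left out, Control 24 hr replicate 2, Control 48 hr, Control 96 hr, Total KD 96 hr or N-long KD 24 hr replicate 1 (adjusted p = 0.0515 to 0.242, edgeR). That is 1 of 9 members tested, where 2.2% of all 13628 genes tested were called. LEFTY2 had a log2 change of 0.35 (SE 0.17, unadjusted p = 0.0455, adjusted p = 0.371, edgeR), and the other 7 had values between -0.24 (GDF3) and 0.18 (NODAL). The sum of pluripotency markers was 3562 to 4680 rpm in total KD and 3146 to 4107 in the controls. Its part in the TDGF1 result was not tested.

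Under N-short KD none of the 9 passed, where 0.00734% of all genes did, and none had an unadjusted p under 0.05. N-long KD also gave 0 of 9, against 0.022% of all genes, with 0 at an unadjusted p under 0.05. These 3 comparisons share the same 3 controls. When both isoform knockdowns were compared directly, 0 of 9 passed (0.0147% of all genes), and 2 had an unadjusted p under 0.05. These were TDGF1, with a log2 change of 0.13 (SE 0.035, adjusted p = 0.580, edgeR), and FGFR1, with -0.07 (SE 0.027, adjusted p = 0.933, edgeR). At the level of single introns, of 76 member introns tested, 0 passed in any of the 4 knockdown comparisons, in which 0.456%, 0.0113%, 0.0443% and 0.0298% of 124164 introns passed in the order given. At an unadjusted p under 0.05 there were 8, 5, 4 and 10.

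**Figure D2:**
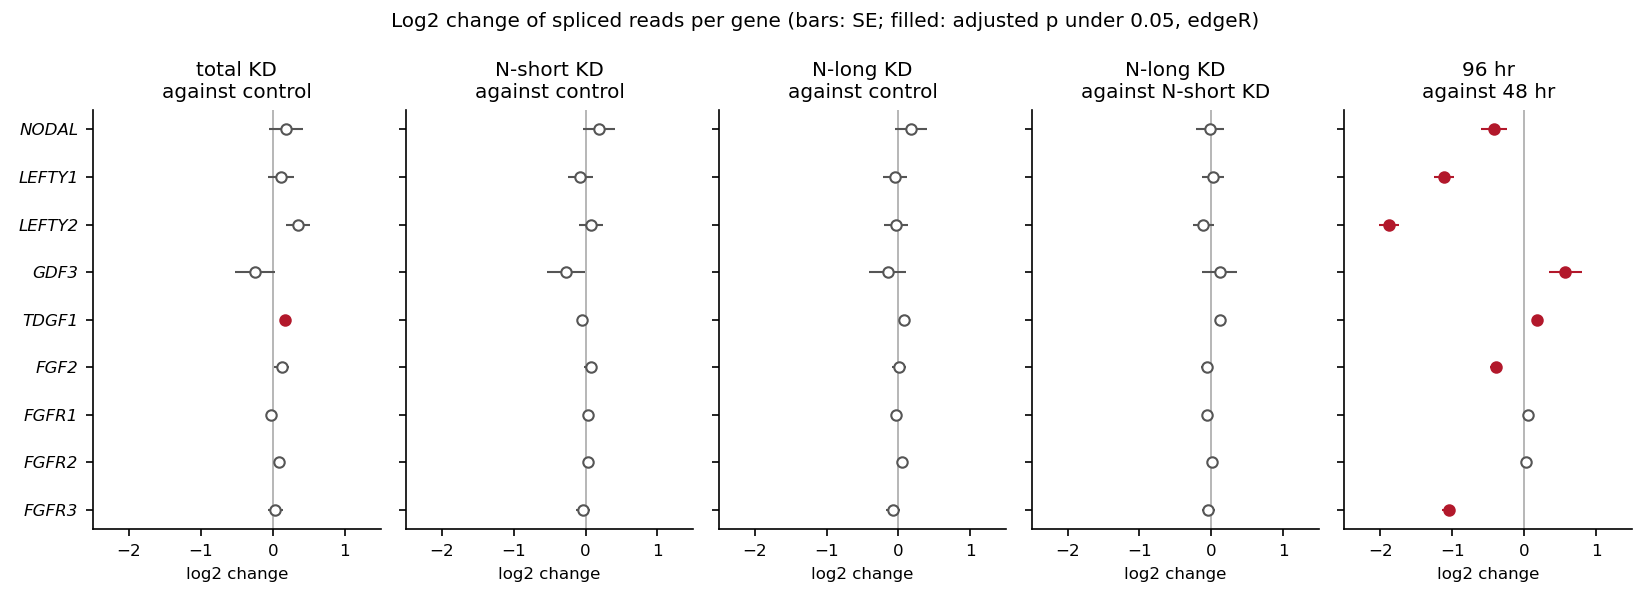
Log2 change of spliced reads (x axis, same scale in all panels) of the 9 members tested, in the 4 knockdown comparisons and in 96 hr against 48 hr; bars are standard errors and filled points have an adjusted p under 0.05 (edgeR). TDGF1 is the single filled point among the knockdown panels, and 7 of 9 genes are filled in the panel of time.

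LEFTY2, LEFTY1 and FGFR3 differed most between 48 hr and 96 hr. Of the 9 members 5 fell, LEFTY2, LEFTY1, FGFR3, NODAL and FGF2, and 2 rose, GDF3 and TDGF1. That is 7 of 9, where 59% of all genes passed, so the count itself says little about the members and the sizes are given. LEFTY2 fell by 1.88 on the log2 scale (SE 0.14, adjusted p = 8.65e-14), LEFTY1 by 1.12 (SE 0.14, adjusted p = 3.71e-08) and FGFR3 by 1.05 (SE 0.086, adjusted p = 2.3e-12, all edgeR). FGF2 fell by 0.40 (SE 0.081, adjusted p = 8.07e-05, edgeR) and TDGF1 rose by 0.17 (SE 0.034, adjusted p = 5.42e-05, edgeR). The smaller calls, NODAL at -0.42 (adjusted p = 0.0476) and GDF3 at 0.57 (adjusted p = 0.0285, both edgeR), were lost under DESeq2 (adjusted p = 0.135 and 0.103). NODAL's call was also lost without N-long KD of 24 hr replicate 2 and without any library of 48 or 96 hr but N-short KD 48 hr and N-long KD 96 hr (adjusted p = 0.0521 to 0.234, edgeR). GDF3's call was lost without Control 48 hr, Total KD 48 hr, N-long KD 48 hr, Control 96 hr or Total KD 96 hr (adjusted p = 0.0722 to 0.122, edgeR). FGFR1, at 0.05 (SE 0.027, adjusted p = 0.0861), and FGFR2, at 0.02 (SE 0.040, adjusted p = 0.615), did not pass.

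LEFTY2 had the largest fall of the 9 in every group of libraries. LEFTY2 went from 48 to 96 hr by -2.198 in the control, -1.66 in total KD, -2.06 for N-short KD and -1.83 for N-long KD, on the log2 scale of levels. FGFR3 went by -1.28, -0.94, -1.04 and -1.15, and LEFTY1 by -1.53, -0.93, -1.22 and -1.001. The 24 hr libraries, earlier in time, were at the low level of the 96 hr libraries for these genes, so the values do not fall steadily from 24 to 96 hr. Each of 48 and 96 hr is 1 library set, so time and library set cannot be told apart. The 24 hr libraries are also of other library series than those of 48 and 96 hr. Beside these values, the pluripotency markers summed to 3439 to 3592 rpm at 48 hr and 3933 to 4680 at 96 hr, and the mesendoderm and endoderm markers to 0.833 to 1.22 at 48 hr and 0.901 to 2.57 at 96 hr. Their part in the difference was not tested.

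By intron, 31 of 76 member introns passed between 48 and 96 hr (32.9% of all introns), 10 higher and 21 lower. All 3 tested introns of LEFTY2 fell, as did 13 of 15 of FGFR3 and 1 of 2 of FGF2, and the 1 tested intron of LEFTY1 alone and the 2 it shares with AL117348.2 also fell. Of TDGF1, 4 of 5 rose, and the single intron of GDF3 rose, while neither tested NODAL intron passed. FGFR1 had 4 of 24 and FGFR2 2 of 21, among them the FGFR2 intron that starts at the VT donor (log2 change 0.41, SE 0.15, adjusted p = 0.0294, edgeR). In FGFR1 the intron chr8:38412596-38413917 had the largest change, 1.21 (SE 0.45, adjusted p = 0.0263, edgeR), at 3 to 5 reads per library at 48 hr and 4 to 16 at 96 hr.

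The receptor exons were compared next, since RBFOX2 is known to act on FGFR2 splicing. FGFR2 in HUES66 used mostly exon IIIc, and the group mean of the IIIb share was lowest in total KD. Each exon has a junction into it and one out of it, and the mean of both per exon gave a IIIb share of 18.3% (24 hr replicate 2), 8.99% (48 hr) and 10.7% (96 hr) in the controls. In total KD it was 5.00%, 3.13% and 2.41% at 24, 48 and 96 hr, all below every control. N-short KD gave 9.59%, 20.4%, 10.5% and 11.3%, and N-long KD 15.3%, 15.1%, 4.30% and 6.52%, both overlapping the controls. The N-long KD library of 48 hr lay below total KD at 24 hr, so N-long KD and total KD overlapped too. The group means were 12.7% ± 4.97 (SD, n = 3) in the controls, 3.51% ± 1.34 (SD, n = 3) in total KD, 12.9% ± 5.03 (SD, n = 4) under N-short KD and 10.3% ± 5.72 (SD, n = 4) in N-long KD. HUES66 WT was at 16.7%. The mean counts behind these shares were 2 to 11 IIIb reads and 39 to 93 IIIc reads per library, which sets their precision.

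The log2 change of the IIIb to IIIc ratio under total KD was -1.74 (SE 0.43, unadjusted p = 0.00167), and it did not pass the threshold over 463 exon pairs (adjusted p = 0.0772, edgeR). It passed in 5 of 19 alternatives, among them HUES66 WT taken as the missing control of 24 hr replicate 1 (-1.85, adjusted p = 0.00625, edgeR) and the fit without the set block (-1.95, adjusted p = 0.00852, edgeR). Summed over libraries, the controls had 33 reads into IIIb and 204 into IIIc (13.9%, 95% Wilson interval 10.1% to 18.9%) and total KD had 15 and 245 (5.77%, 3.53% to 9.30%). Out of IIIb and IIIc to the next constant exon the controls had 22 and 205 reads (9.69% IIIb, 6.49% to 14.2%). Total KD had 2 and 252 (0.787%, 0.216% to 2.83%). These exit shares leave out reads that joined IIIb to IIIc, of which the 14 libraries held 51. The controls had 7 of them, total KD 9 and N-short KD 13. In total KD more reads therefore left IIIb for IIIc (9) than for the next constant exon (2). The 0.787% does not cover those 9. For N-long KD the 2 junctions went apart, with 14.7% IIIb into the exons (11.2% to 19.1%) and 3.61% out of them (2.03% to 6.34%), and N-short KD had 15.6% (11.9% to 20.3%) and 7.20% (4.656% to 10.97%). In N-long KD 46 reads entered IIIb and 11 left it for the next constant exon, beside the 22 that joined it to IIIc. Such sums cover counting error only. For N-short KD the log2 change was -0.04 (SE 0.31), for N-long KD -0.44 (SE 0.32) and for N-long against N-short KD -0.41 (SE 0.30), with adjusted p = 0.998 to 0.999 (edgeR).

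**Figure D3:**
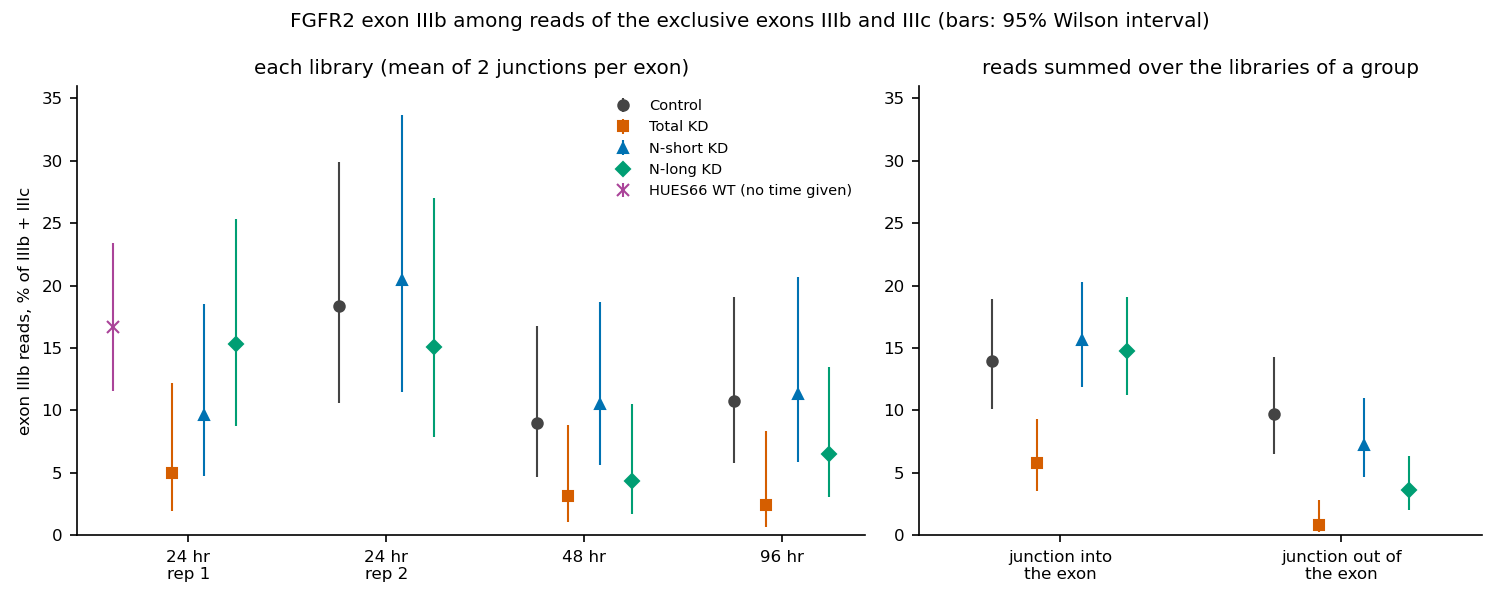
Left, FGFR2 exon IIIb as a percent of IIIb plus IIIc reads (y axis) in each HUES66 library by library set (x axis); right, the reads of all libraries of a group summed, separately for the junction into and out of the exon. Bars are 95% Wilson intervals. The total KD points, at 2.41% to 5.00%, lie below the control points, at 8.99% to 18.3%, while their bars overlap within the 48 hr and the 96 hr set. Reads that join IIIb to IIIc are left out.

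Under the rule for exclusive exons, 4 pairs tested belonged to members, 1 of FGFR1 and 3 of FGFR2. Of these 0 passed in any knockdown comparison. In 2 of the FGFR2 pairs the exons lie on either side of IIIb and IIIc and are joined through them. Exon IIIc had 958 reads into it and 996 out of it in the 14 libraries, so these 2 pairs are not truly exclusive. Over all pairs 1.94% passed under total KD, 0 under N-short KD (7 at an unadjusted p under 0.05), and 0.216% each in the other 2 comparisons. The members had 8 cassette exons tested, 3 of FGFR1 and 5 of FGFR2, and 0 passed in these comparisons (1, 0, 1 and 1 at an unadjusted p under 0.05). Over all cassette exons 1.29%, 0.0145%, 0.48% and 0.363% passed. The largest of the 8 was FGFR2 exon IIIc against its skipping, at 3.24 under total KD (SE 0.92, adjusted p = 0.0783, edgeR) and 1.61 under N-long KD (SE 0.62, adjusted p = 0.712, edgeR). The skipping junction here is the one that leaves exon IIIb, so this value and the IIIb to IIIc ratio rest on shared reads.

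The authors' deposited tables hold 493 entries for 8 of the 10 genes over 9 comparisons, and 0 of them had an adjusted p under 0.05. For the FGFR2 exclusive pair the authors' deposited table of total KD gave an inclusion difference (control minus knockdown) of 0.115 at 24 hr (p = 0.000221, adjusted p = 0.176). At 48 hr it was 0.064 (adjusted p = 0.662) and at 96 hr 0.068 (adjusted p = 0.472), again from the authors' deposited table. These tables do not state which exon of the pair is counted as included. The headers of the authors' deposited 24 hr tables name 2 control replicates.

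FGFR1 and FGFR3 showed other patterns at the same pair of exons. FGFR1 exon IIIb (chr8:38423025-38423175, 151 nt) took 186 of 4007 reads entering the pair in the 14 libraries (4.64%, 95% Wilson interval 4.03% to 5.34%). Only 3 reads left IIIb for the next constant exon, against 2398 from IIIc, and 21 joined IIIb to IIIc. FGFR1's log2 change was 0.52 (SE 0.35) under total KD, 0.19 (SE 0.32) under N-short KD, -0.55 (SE 0.35) under N-long KD and -0.74 (SE 0.31) between N-long and N-short KD, with adjusted p = 0.996 to 0.999 (edgeR). In FGFR3, IIIb (chr4:1802914-1803064) took 11 of 124 entering reads (8.87%, 5.03% to 15.2%), and 0 of 114 reads left it for the next exon, which allows a share of up to 2.63%. The FGFR3 pair had too few reads to be tested.

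The Ig-I exon, of the same length in both genes, codes for the first Ig domain, and receptor forms without it are known as beta forms. Counts that keep it are the rounded mean of the junctions into and out of the exon, and are set against the reads that skip this exon alone. FGFR1 kept this exon (chr8:38429682-38429948) in 2729 of 2812 counts in the 14 libraries (97.1%, 96.4% to 97.6%), and FGFR2 kept its own (chr10:121565438-121565704) in 1029 of 1194 (86.2%, 84.1% to 88.0%). The intervals lie apart. In FGFR2 a further 62 reads skipped the Ig-I exon together with the next one, and with these the share of the donor before it that went into the Ig-I exon was 82.1% (79.8% to 84.1%). At the VT donors, FGFR1 used the longer form in 2383 of 2889 reads (82.5%, 81.1% to 83.8%) and FGFR2 in 623 of 880 (70.8%, 67.7% to 73.7%). These 2 choices, and the ones named next, were chosen after their values were seen. A second pair of FGFR1 donors 6 bases apart, into the acceptor at chr8:38428094, split 69.1% to 30.9%. In FGFR3 a pair of acceptors 3 bases apart, from the donor at chr4:1804521, split 77.6% to 22.4%.

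**Figure D4:**
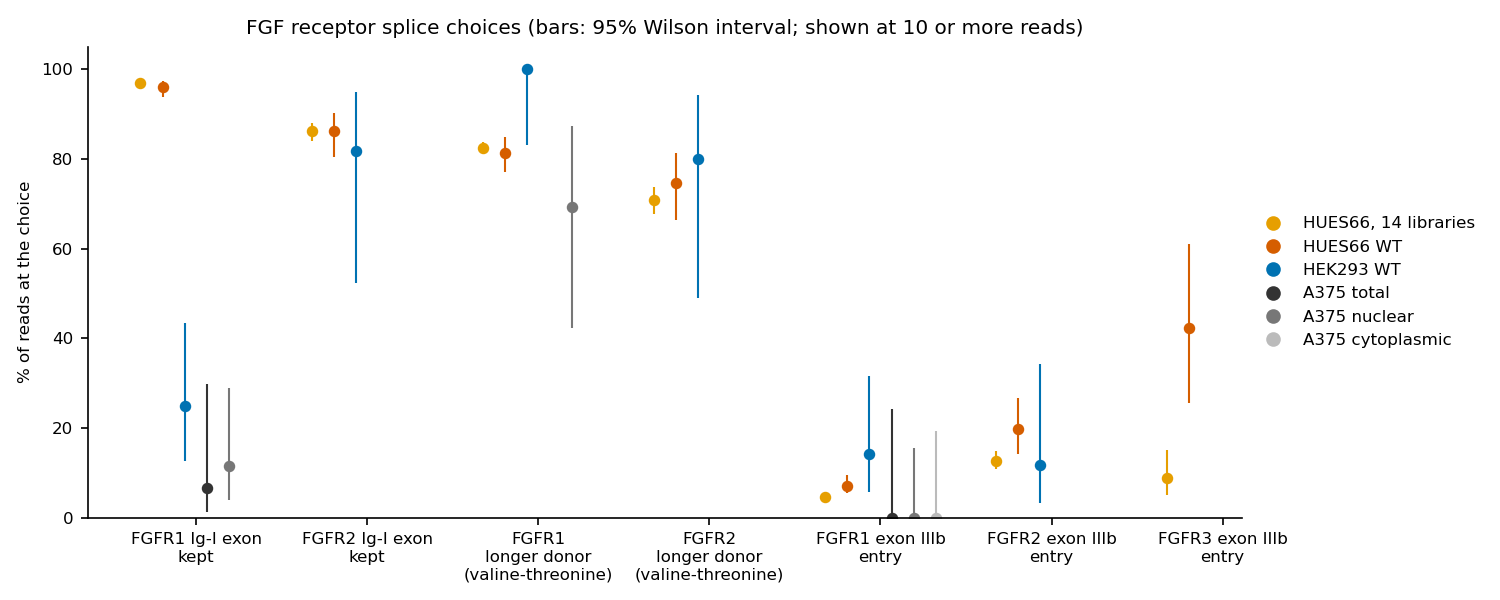
Percent of reads (y axis) that take the named form at 7 splice choices of FGFR1, FGFR2 and FGFR3 (x axis), in the 14 HUES66 libraries summed and in the 5 other libraries; points rest on 10 or more reads and bars are 95% Wilson intervals, for the Ig-I exons on rounded junction means. The FGFR1 Ig-I exon is kept in 97.1% in HUES66 and in 6.67% to 25.0% in A375 and HEK293.

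Among the cell lines, 1 library each and therefore without a replicate check, the Nodal genes had reads almost only in HUES66. HUES66 WT, HEK293 and A375 are of different library series by name, so line and series cannot be told apart in the comparisons of lines below. NODAL, LEFTY1, GDF3 and TDGF1 had 0 reads in HEK293 and in A375 total RNA. Against a floor of 3 reads in A375, HUES66 WT (3.04, 3.37, 1.83 and 185 rpm) was 8.53-fold higher for NODAL, 9.44-fold for LEFTY1, 5.12-fold for GDF3 and 520-fold for TDGF1. The exact 95% lower limits from the counts were 6.79, 7.52, 4.01 and 422 in the same order. LEFTY2 had 0 reads in A375 total RNA, and on the same floor HUES66 WT (2.94 rpm) was 8.23-fold higher (lower limit 6.54). HEK293 had 6 LEFTY2 reads, and HUES66 WT was 4.70-fold higher (exact 95% interval 2.07 to 13.2). FGF4 had 4 reads in HUES66 WT and 0 in the others, too few for a ratio.

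FGF2 and the 3 receptors had reads in all 3 lines, at different levels. FGFR1 was at 361 rpm in HUES66 WT, 54.9 in HEK293 and 32.9 in A375, a ratio of 10.97 to A375 (9.73 to 12.4) and of 6.58 to HEK293 (6.03 to 7.20). FGFR2 was at 107, 20.9 and 2.14 in the same order, 50.1 times A375 (31.7 to 84.7) and 5.13 times HEK293 (4.44 to 5.94). FGFR3 was at 14.1, 6.77 and 2.26, a ratio of 6.23 (3.94 to 10.46) and 2.08 (1.60 to 2.75). FGF2 was closest between the stem cells and the melanoma line, at 14.6, 3.23 and 8.68 rpm, 1.68 times A375 (1.31 to 2.19) and 4.53 times HEK293 (3.14 to 6.75).

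In counts, 8 of 10 members were at least 4 times higher in HUES66 WT than in A375, where 11.8% of genes with enough reads were. Against HEK293 it was also 8 of 10 (11% of such genes). FGF4 is among the 10 but had too few reads to be evaluated in either. Between HEK293 and A375, 1 of the 4 members with enough reads was at least 4 times higher in HEK293 (7.39% of genes), FGFR2 at 9.78-fold (6.03 to 16.8). Within A375, 3 of the 4 members with reads were at least 2 times higher in nuclear than in cytoplasmic RNA (22.6% of genes). FGFR1 was 5.92-fold higher in the nuclear library (4.899 to 7.17), FGFR2 6.88-fold (3.804 to 12.9) and FGFR3 6.88-fold (2.78 to 18.6, from 16 and 8 reads). Counted over the introns common to most coding transcripts only, 2 members passed, FGFR1 and FGFR2. FGFR3 had under 20 reads in those introns and was not evaluated there. FGF2 went the other way, 1.52-fold higher in the cytoplasmic library (1.12 to 2.11).

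**Figure D5:**
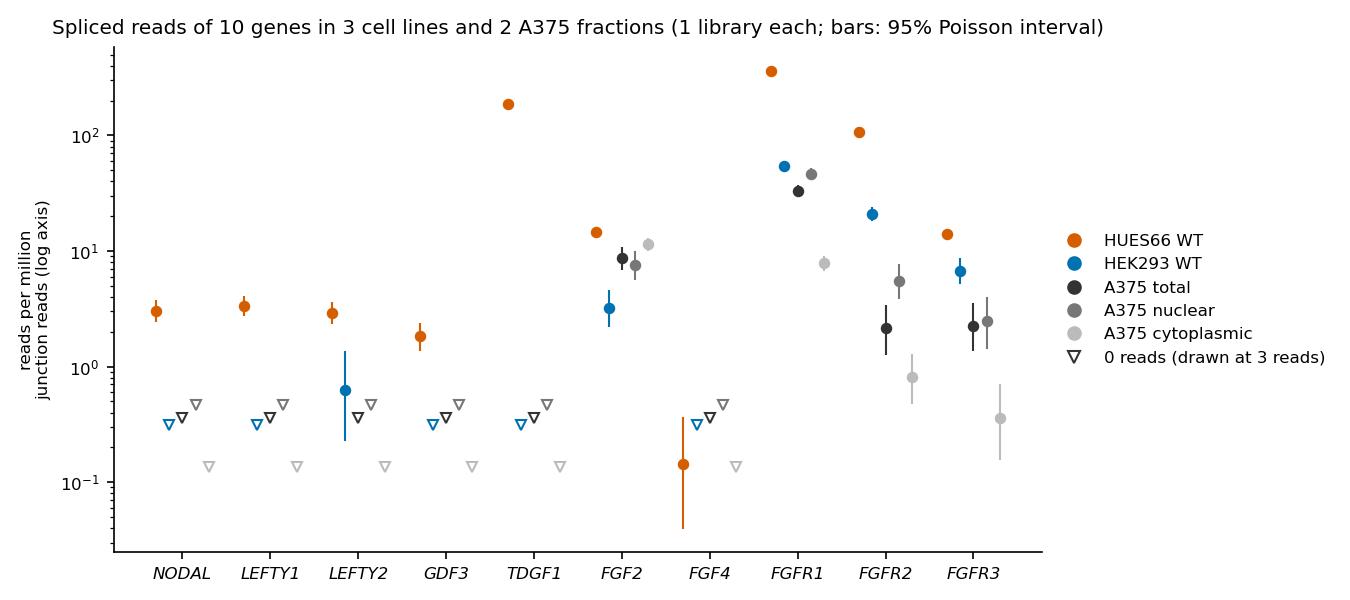
Reads per 1000000 junction reads (y axis, log scale) of the 10 genes (x axis) in HUES66 WT, HEK293 WT and 3 A375 libraries, 1 library each; bars are exact 95% Poisson intervals and open triangles stand for 0 reads, drawn at the level of 3 reads. TDGF1 stands at 185 in HUES66 WT and at 0 reads elsewhere, and FGFR1, FGFR2, FGFR3 and FGF2 have reads in all 5 libraries.

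Receptor forms differed between lines as well. FGFR1 kept its Ig-I exon in 431 of 449 counts, taken as junction means as before, in HUES66 WT (96.0%, 93.8% to 97.5%) but in 7 of 28 in HEK293 (25.0%, 12.7% to 43.4%), 1 of 15 in A375 total RNA (6.67%, 1.19% to 29.8%), 3 of 26 in A375 nuclear RNA and 0 of 7 in A375 cytoplasmic RNA, which allows up to 42.9%. By junction, HEK293 had 4 reads into the exon, 9 out of it and 21 that skipped it, and A375 total RNA had 0, 2 and 14. FGFR2 kept its Ig-I exon in 162 of 188 counts in HUES66 WT (86.2%) and in 9 of 11 in HEK293 (81.8%, 52.3% to 94.9%), whose intervals overlap. The longer VT donor of FGFR1 took 19 of 19 reads in HEK293 (83.2% to 100%) and 322 of 396 in HUES66 WT (81.3%, 77.2% to 84.8%), again with overlapping intervals. FGFR3 in HUES66 WT used IIIb in 11 of 26 entering reads (42.3%, 25.5% to 61.1%), beside 8.87% in the 14 doxycycline-treated libraries summed. That sum leaves out the spread between libraries. Single libraries of the 14 ranged from 0 to 37.5%, the highest being N-long KD 24 hr replicate 1 (3 IIIb and 5 IIIc reads, 13.7% to 69.4%). A difference of HUES66 WT from them is therefore not shown. The junction out of the exon had 0 IIIb and 16 IIIc reads in HUES66 WT (0% to 19.4%), beside the 0 of 114 above. HEK293 had 3 IIIb and 0 IIIc reads on the way in, 2 and 3 on the way out, and 5 that joined IIIb to IIIc. A375 total RNA had 0 IIIb reads of 12 for FGFR1, which allows up to 25.0%, and A375 had at most 2 entering reads of FGFR2 in any of its libraries.

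Other genes of the pathways were read from lists of their partners. Of 28 further genes of the Nodal and activin pathway 22 were tested, and 1 passed under total KD, where 2.2% of all genes did. INHBE, which codes for an activin subunit, rose by 2.78 (SE 0.39, adjusted p = 1.34e-05, edgeR). It was at 4.43, 2.57 and 2.997 rpm in total KD (64, 37 and 33 reads) and 0.469, 0.410 and 0.375 in the controls (5 reads each), which do not overlap. In the N-short, N-long and N-long against N-short comparisons 0 of 22 passed (1, 0 and 2 at an unadjusted p under 0.05). Over all genes 0.00734%, 0.022% and 0.0147% passed in these. The median log2 change of the list under total KD was 0.04, and that of all genes 0.00. Between 48 and 96 hr, 5 rose and 8 fell, where 59% of all genes passed, with a list median of -0.03 against -0.01 over all genes. The receptor gene ACVR1C (-1.06, SE 0.30) and CER1 (-0.99, SE 0.27), a secreted Nodal antagonist, fell most, and FST, the activin-binding follistatin, rose by 0.60 (SE 0.16). PCSK6 (-0.40) and FURIN (-0.29), proteases that process Nodal, and the receptor gene ACVR2B (-0.31) fell as well (adjusted p = 2.73e-07 to 0.00971, edgeR).

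Of 30 further FGF pathway genes 27 were tested, and 0 passed in the knockdown comparisons (3, 1, 2 and 0 at an unadjusted p under 0.05). Over all genes 2.2%, 0.00734%, 0.022% and 0.0147% passed in the same order. From 48 to 96 hr, 7 rose and 11 fell, beside 59% of all genes called, with a median of -0.20 against -0.01 for all genes. Those that fell included EGR1 (-1.82, SE 0.52), an immediate early gene at up to 1.25 rpm, and the MAP kinase phosphatases DUSP4 (-0.83, SE 0.22) and DUSP6 (-0.61, SE 0.071), which are known targets and brakes of FGF signalling. The carrier FGFBP3 (-0.60) and the decoy receptor FGFRL1 (-0.46) also fell. FGF19, a ligand, rose by 0.74 (SE 0.18). Not all known FGF targets moved one way: ETV5 fell (-0.41, SE 0.062) and ETV4 rose (0.23, SE 0.038), both past the threshold and chosen after their values were seen.

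The 16 regulators of the FGFR exons, all tested, include RBFOX2 itself. Of these 2 passed under total KD, beside 2.2% of all genes. Under total KD RBFOX2 fell by 0.82 (SE 0.080, adjusted p = 1.1e-08) and PTBP2, a splicing repressor, by 0.21 (SE 0.052, adjusted p = 0.0203, both edgeR). The latter had 95.9 to 123 rpm in total KD and 115 to 138 in the controls, which overlap. The N-long libraries also had less RBFOX2 than the controls (-0.57, SE 0.071, adjusted p = 3.38e-05) and than N-short KD (-0.52, SE 0.065, adjusted p = 4.69e-05, both edgeR). In N-short KD 0 of 16 passed (0 at an unadjusted p under 0.05). Over all genes 0.022%, 0.0147% and 0.00734% passed in these comparisons, in that order. From 48 to 96 hr 11 rose and TIA1 fell (-0.11), again beside 59% of all genes called, with a median of 0.28 against -0.01 for all genes. HNRNPM (0.92, SE 0.032), MBNL1 (0.43), HNRNPF (0.40), SRSF10 (0.36), PTBP1 (0.35) and HNRNPH1 (0.35) had the largest rises. ESRP1, the epithelial regulator known to favour exon IIIb, was at 284 rpm in HUES66 WT, 7.50 in HEK293 and 0.119 in A375.

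Across the 14 libraries the members' levels followed each other in part. The Pearson correlation of log2 levels was 0.98 between LEFTY1 and LEFTY2, which share near-identical sequence, 0.90 between NODAL and FGF2 and 0.91 between LEFTY2 and FGFR3. TDGF1 and FGFR3 were at -0.04. These are descriptions over libraries that share library sets. By the same measure over all genes tested, the most alike were ANXA1 (0.90) for NODAL, BCAM (0.96) for LEFTY1 and TKT (0.97) for LEFTY2, beside the members already named. For GDF3 they were IDI1 (0.92) and CGAS (0.90), for TDGF1 RBPMS2 (0.94) and ERRFI1 (0.93), and for FGF2 TAGLN (0.96) and CRISPLD1 (0.95). Among the receptors they were BTBD9 (0.92) and NISCH (0.89) for FGFR1, TNRC6A (0.93) and HAS2 (0.93) for FGFR2, and CAPG (0.98) and CCNB1IP1 (0.97) for FGFR3.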

How the data were processed

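The authors' deposited junction tables hold raw counts, the number of reads across each splice junction of a library, with strand and position per the file headers. The submitters' processing notes name hg38, STAR 2.7.1 and SAMtools 1.9. The counting step and its filters are not given in the sources used here. Junctions were matched by position to GENCODE 29 introns (96.7% to 98.3% of reads). Reads in introns of 1 gene name were summed per gene. The authors also deposited 9 tables of splicing events, in which the inclusion difference is on a scale other than counts (-1 to 1), and whose p-value columns are theirs, per the file headers; 69 per-library columns were not used.

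The 14 doxycycline-treated libraries were fitted with edgeR 4.0.16 in R 4.3.3 (TMM factors, filterByExpr, quasi-likelihood F-test), with library set and knockdown as terms, with Benjamini-Hochberg adjustment over all genes, introns, cassette exons or exon pairs (threshold 0.05). Exon events needed a mean of 20 reads and were fitted as paired columns. Exclusive pairs are 2 exons with the same outer splice sites and no more reads joining them directly than the rarer exon has. Exons joined through another exon can therefore pass, and this rule was chosen after the annotation was seen. Library sets pair the libraries: residuals of the same set correlated in all 18 pairs (median 0.50, lowest 0.26) and had a median of -0.15 in 55 pairs of different sets. The pairing comes from the labels, where time, replicate number and library name mark the sets. Alternatives used DESeq2 1.42.0, limma 3.58.1, other filters and left-out libraries. The tests were checked on simulated data.

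Shares carry 95% Wilson and counts exact Poisson intervals, and the limit for 0 reads is 3 reads. Single-library ratios needed 20 reads. The members and lists were chosen with earlier results of these data known. The text names all members, RBFOX2, up to 6 called genes per list and comparison, the 2 most alike genes per member, and the IIIb, IIIc and tested exons. HUES66 WT carries the controls' name in its description and enters tests as an alternative only. Sequences were read from GENCODE 29 transcripts, and other sequences are not reported here.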

Additional observations from a re-analysis of the deposited data

Results flagged for a closer look

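In 22 groups of 4 libraries (each gene, and the FGFR2 exon IIIb share, in each isoform knockdown), 6 had 1 library that stood far from the other 3 by Dixon's test, where chance gives about 1 in 20. LEFTY2 was at 13.9 rpm in N-short KD at 48 hr against 2.66 to 3.32 in the other 3, and at 11.9 in N-long KD at 48 hr against 2.08 to 3.32. FGFR3 was at 23.3 in N-long KD at 48 hr against 10.50 to 12.3. GDF3 was at 2.27 in N-long KD at 96 hr against 1.68 to 1.71, and FGFR1 at 349 in N-long KD of 24 hr replicate 2 against 371 to 373. The FGFR2 IIIb share was 20.4% in N-short KD of 24 hr replicate 2 against 9.59% to 11.3%. Each of these groups spans 3 times and 4 library sets.

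Some introns of the members are not in GENCODE 29 and entered no comparison, yet had at least 50 reads over the 19 libraries. In TDGF1, chr3:46579854-46581131, which joins the donor of one annotated intron to the acceptor of the next, had 226 reads (3.38% of the reads of its donor in the 14 libraries). A second, chr3:46578005-46579231, had 64. The third TDGF1 intron, chr3:46581624-46581759, had 106 reads, of which 63 lay in HUES66 WT, 43 in Control 96 hr and 0 in the other 17 libraries. FGFR1 had 164 reads at chr8:38414902-38415844 and 52 at chr8:38443493-38457355. NODAL had 102 reads at chr10:70435984-70442030; in the 14 libraries this intron took 94 of 259 reads of its acceptor (36.3%, 95% Wilson interval 30.7% to 42.3%), the annotated one taking the other 165. LEFTY2 had 59 reads at chr1:225937961-225939360, 7.58% of its donor's reads in the 14 libraries. No A375 library had reads in any of these 7 introns, and HEK293 had 2 reads, in FGFR1.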

How the results depend on the processing

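Of 638 alternatives over 37 results, 595 were labelled the same. For log2 changes this means the same direction and the same side of the threshold. Counts were labelled the same when close in size, even where single calls were lost, such as NODAL and GDF3 for time. Without the replicate block (a time point term instead), members called under total KD went from 1 to 0 (TDGF1 0.28, adjusted p = 0.295, edgeR), member cassette exons from 0 to 1, and the FGFR2 IIIb to IIIc change to -1.95 (adjusted p = 0.00852); it changed no other call. With HUES66 WT as a control of 24 hr replicate 1, chosen after seeing the data, cassette exons came to 1, the FGFR2 change to -1.85 (adjusted p = 0.00625) and the FGFR1 N-short change to -0.16. The FGFR2 change passed with at least 50 reads (-1.74, adjusted p = 0.0387) and in limma (-1.66, adjusted p = 0.0493), and it was -1.29 (adjusted p = 0.22) with the upstream junction alone. That junction gave FGFR2 changes of 0.10 (N-short KD) and 0.05 (N-long KD), against -0.04 and -0.44. Leaving out single libraries gave 0 to 1 members and 0 to 1 cassette exons called under total KD, -2.03 to -1.52 for FGFR2 (adjusted p = 0.0232 to 0.466), -0.21 to 0.18 for FGFR2 and -0.0059 to 0.43 for FGFR1 in N-short KD, 5 to 7 members and 23 to 31 introns called for time. The FGFR2 change under total KD passed without N-short KD 24 hr replicate 1 (-2.03), and a cassette exon passed without that library or Total KD 24 hr replicate 1. Signs turned in N-short KD for FGFR1 without Control 48 hr and for FGFR2 without N-short KD 24 hr replicate 1, N-long KD 24 hr replicate 1 (0.11) or Control 96 hr (0.034). With DESeq2, 5 members were called for time. At 2-fold, 2 members were higher in HEK293 than in A375, not 1. The cause was not tested. FGFR3's pair could not be fitted, having too few reads. Depth limits the exclusive exons and the A375 ratios, which rest on few reads.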
